A study of Homo sapiens with 22 samples.

Results

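Synaptic vesicle release was followed through 34 genes in human neuroblastoma cell lines. The set holds 15 of the synaptotagmins measured here, SYT8 and SYT10 not among them. Vesicle proteins, SNARE and fusion factors and active zone scaffolds that act with synaptotagmins complete it. The genes were chosen by symbol from the 63677 genes of each expression table. All 34 were found under 1 identifier each. At an RPKM of 1 or more in at least 2 libraries, 29 of them could be tested in monolayers, among 19461 genes, and 26 in spheres, among 14711 genes. RPKM is the number of reads per kilobase of gene length, scaled to the assigned reads of the library.

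A synaptic vesicle is loaded with transmitter, docked at the active zone by RIM, RIM-binding protein and Munc13 proteins, and fused with the plasma membrane when the SNARE proteins on vesicle and membrane zip together. Calcium triggers the last step through synaptotagmins, membrane proteins with a pair of C2 domains, of which SYT1, SYT2 and SYT9 are fast sensors and SYT7 is a slow one. Other synaptotagmins such as SYT4 and SYT11 bind little calcium and act in dense core vesicle and membrane traffic. Neuroblastoma arises from sympathoadrenal precursors, and retinoic acid (RA) drives SH-SY5Y cells toward a neurone-like shape. REST is a repressor that binds the RE1 element and keeps many of these neuronal genes low outside neurones.

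SH-SY5Y cells, a neuroblastoma line without MYCN amplification, carried 1 of 3 kinds of stably expressed lentiviral short hairpin RNA (shRNA), kept under puromycin selection: a scrambled control, or a hairpin against the CASC15-003 (sh003) or CASC15-004 (sh004) transcript of the long non-coding RNA gene CASC15. Monolayers were collected on day 0, grown in medium with 10% serum, or on day 7 of RA, labelled as 10 mM, in 1% serum by one protocol field and 10% by another. No untreated day 7 library is analysed here, so RA and the days in culture cannot be told apart. There were 3 control libraries at day 0 (batches 1, 2 and 3), 2 control libraries at day 7 (batches 1 and 2), 3 sh003 libraries at each day and 2 sh004 libraries at each day, all of batch 2. Spheres, cells grown in sphere-forming medium, gave 1 control, 2 sh003 and 2 sh004 libraries. KELLY cells, a MYCN-amplified neuroblastoma line, gave 1 library with control siRNA and 1 with SOX9 siRNA. Nothing in the labels says whether libraries of a group came from separate transductions, so p-values measure the spread between these libraries, which may be technical.

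Each knockdown arm rests on a pair of hairpins, shown here because replicates of an arm differ in the hairpin as well as in the batch:
sh003, hairpin 1: ctagcactgacctccttcatt
sh003, hairpin 2: ctttccatcagccaacaatat
sh004, hairpin 1: caggctgttcccagggattta
sh004, hairpin 2: taggaataccttacatccaat

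The libraries held 11884895 to 62075189 assigned reads. The whole CASC15 gene sums all transcripts and so does not test either targeted one. Its RPKM lay between 1.14 and 3.38 in monolayers and between 1.59 and 2.46 in spheres. At day 0 it had 1.523, 1.315 and 2.378 in controls of batches 1, 2 and 3. The sh003 libraries of the same batches had 1.952, 1.569 and 2.652, and sh004 had 1.164 and 1.143. At day 7 CASC15 had 3.329 and 3.260 in controls, 2.082, 3.268 and 3.380 in sh003 and 1.306 and 1.475 in sh004. Of the sh003 libraries, hairpin 1 of batch 2 (title day 7) and hairpin 2 of batch 1 (title day 0) carry a culture tag that contradicts the title; the RA-induced enzyme CYP26A1 was at 686.8 and 0.199 RPKM in them, following the titles used here. The sh004 day 7 library of hairpin 2 stood apart with CYP26A1 at 9.00 RPKM, against 221.3 to 686.8 in the other day 7 libraries. CYP26B1, also RA-induced, was at 85.71 in that library, against 782.2 to 1162 in the other day 7 libraries. RARB, another RA-induced gene, was at 29.99 in that library and 38.4 in hairpin 1. Of the sympathoadrenal markers, PHOX2A lay between 206.1 and 535.8 RPKM and HAND2 between 144.6 and 290.6 in SH-SY5Y monolayers, although TH was at most 1.57 there. Of the defining markers of other cells, PECAM1 was at 0 in every library, and the other endothelial marker, CDH5, had at most 1 read in SH-SY5Y libraries but 227 and 91 reads (1.495 and 0.636 RPKM) in KELLY with control and SOX9 siRNA. The immune markers PTPRC and CD68 were at most 0.0841 and 0.151. The 4 fibroblast markers COL1A1, COL1A2, DCN and LUM summed to 6.38 to 26.5 RPKM in day 0 controls and 30.3 to 51.3 in day 0 sh003 libraries, and DCN was at most 0.332 in those controls and 3.93 to 8.71 in those sh003 libraries. In such bulk samples, fewer cells of a type and less RNA per cell cannot be told apart.

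By median RPKM over the 15 monolayer libraries, SYT11 led at 64.9, followed by SYT4 at 44.9, the vesicle glycoprotein SV2A at 32.6, SYT1 at 16.8 and the RIM-binding protein RIMBP2 at 14.7. The ranges of neighbours in this order overlapped: 49.9 to 157.9 for SYT11, 12.1 to 168.3 for SYT4 and 15.3 to 42.1 for SV2A. SNAP25 and VAMP2, which with syntaxin 1 form the neuronal SNARE complex, had medians of 11.1 and 10.5, and the ATPase NSF, which takes spent SNARE complexes apart, 11.5. The other 5 genes did not pass the monolayer filter. SYT6 had a single read over the 15 libraries, and SYN3, SYT13 and RIMS1 reached at most 0.28, 0.66 and 0.71 RPKM. SV2B was at most 0.330 RPKM in 14 of the libraries and 3.06 in the sh004 day 7 library of hairpin 2.

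**Figure D1:**
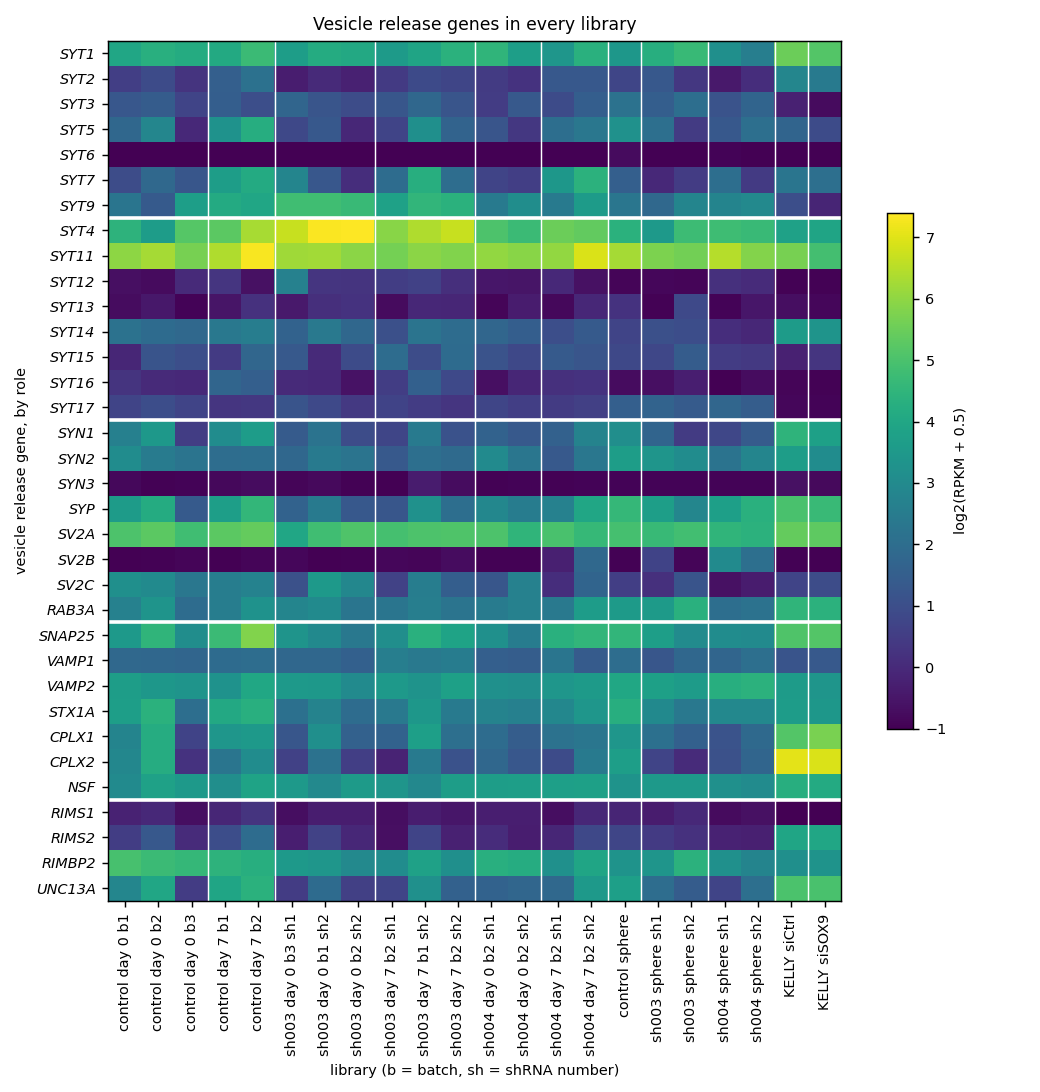
Each row is a vesicle release gene, grouped by role, and each column a library; colour is log2(RPKM + 0.5). By median, SYT11 and SYT4 are the brightest rows in SH-SY5Y monolayers. SV2A is nevertheless brighter than SYT4 in some libraries, among them the day 0 controls of batches 1 and 2. CPLX2 is brightest in the pair of KELLY libraries, and SYT6 and SYN3 are dark throughout.

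Comparing day 7 with day 0 in control cells asks how the release genes move under RA. Both day 7 libraries were above every day 0 library for 10 of 29 members, beside 17.7% of all 19461 genes, a count made after the values were seen. The 10 were SYT2, SYT4, SYT5, SYT7, SYT9, SYT11, SYT14, SYT16, SNAP25 and VAMP1, of which SYT2, SYT7, SYT9 and SYT16 passed the test with batch as a block. SYT2, a fast calcium sensor, had 0.974, 1.40 and 0.690 RPKM at day 0 in batches 1, 2 and 3 and 2.43 and 3.89 at day 7 in batches 1 and 2. SYT7, the slow sensor, had 1.43, 3.11 and 1.86 at day 0 and 12.4 and 17.2 at day 7. SYT9, a fast sensor prominent in endocrine cells, had 4.33, 2.10 and 12.7 at day 0 and 17.0 and 15.3 at day 7. These 3 sensors thus separated the days completely, SYT9 by the narrowest margin because batch 3 was already high. Of the 6 that did not pass, SNAP25 had 11.1, 22.2 and 8.15 at day 0 and 25.7 and 56.0 at day 7 (adjusted p = 0.11 with the block). SYT16, an atypical synaptotagmin that does not bind calcium, had 0.705, 0.509 and 0.479 RPKM at day 0, against 2.87 and 2.42 for day 7.

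Without a batch term no member passed limma's test at an adjusted p of 0.05 in this comparison, where 0.956% of the 19461 genes did. The smallest adjusted p of a member was 0.071, 8 of 29 members had an unadjusted p under 0.05 (2733 of all 19461 genes did), and voom on recovered reads called SYT2 alone. With batch as a block, which the labels support, 4 of 29 members rose and none fell, where 7.68% of all genes passed. Their log2 differences were 1.14 for SYT2 (SE 0.24, adjusted p = 0.023), 2.90 for SYT7 (SE 0.75, adjusted p = 0.045), 1.93 for SYT9 (SE 0.47, adjusted p = 0.039) and 1.59 for SYT16 (SE 0.25, adjusted p = 0.0080). Within batch 1, day 7 was 2.49-fold above day 0 for SYT2, 8.66-fold for SYT7, 3.93-fold for SYT9 and 4.07-fold for SYT16. Within batch 2 the same ratios were 2.77, 5.53, 7.29 and 4.76, so each gene moved the same way in both batches. Over the 29 members the median log2 difference was 0.45 with the block, beside 0.10 over all genes, and 24 members were higher.

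These calls leaned on few libraries. Where a fit left an arm with 1 library, that library was assumed to vary like the other groups. With the block, SYT16 was called in 13 of 15 fits that each left out a library, losing the call without the control of day 0 batch 1 (adjusted p = 0.056) or day 7 batch 2 (0.097). SYT2 was called in 12 and lost it without control day 0 batch 1 (0.12), day 7 batch 1 (0.055) or day 7 batch 2 (0.20). SYT9 was called in 8, with adjusted p from 0.019 to 0.22, and SYT7 in 5, with 0.026 to 0.29. SYT9 lost the call without any control of batch 1 or 2, or any of 3 sh003 libraries (hairpin 2 at day 0 batch 1, day 7 batch 1 and day 7 batch 2). SYT7 kept it only without control day 0 batch 2, sh003 day 7 of hairpin 1 batch 2 or hairpin 2 batch 1, or either sh004 day 7 library.

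**Figure D2:**
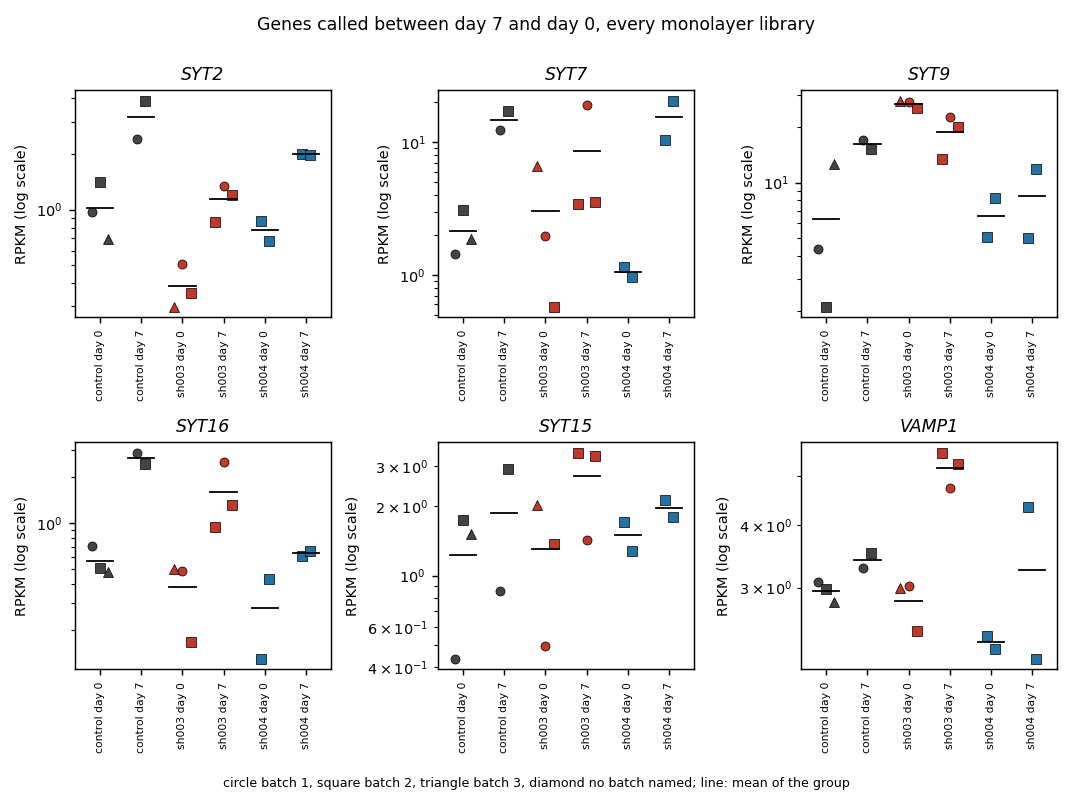
Each panel shows 1 gene in all 15 monolayer libraries by group, RPKM on a log axis; shapes give the batch and lines the group mean. For SYT2, SYT7, SYT9 and SYT16 both control day 7 points lie above all 3 control day 0 points, and SYT9 starts high in sh003 at day 0.

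In sh003 cells the same comparison again showed SYT2 and SYT16 higher at day 7. SYT16 went from 0.4837, 0.1672 and 0.4996 RPKM at day 0 (hairpin 2 batches 1 and 2, hairpin 1 batch 3) to 0.948, 2.49 and 1.31 at day 7 (hairpin 1 batch 2, hairpin 2 batches 1 and 2). SYT2 went from 0.510, 0.354 and 0.297 to 0.859, 1.35 and 1.20. VAMP1, a vesicle SNARE, went from 3.02, 2.46 and 3.00 to 5.58, 4.75 and 5.29. For all 3 genes the days did not overlap. SYT15, whose cellular role is little known, did overlap, with 0.496, 1.37 and 2.03 at day 0 and 3.42, 1.43 and 3.30 at day 7, and on each day the batch 1 library was the lowest; a near copy, SYT15B, may share its reads.

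No member passed without the batch term, where 2.35% of genes did and 3 of 29 members had an unadjusted p under 0.05 (18.5% of all genes). With the batch block 4 of 29 rose and none fell, a share close to the 14.3% of all genes called. The log2 differences were 1.30 for SYT16 (SE 0.23, adjusted p = 0.0077), 0.91 for SYT15 (SE 0.17, adjusted p = 0.0099), 0.78 for VAMP1 (SE 0.21, adjusted p = 0.038) and 0.75 for SYT2 (SE 0.22, adjusted p = 0.046). The median over members was -0.08 with the block, beside 0.07 over all genes. SYT16 lost its call only without the hairpin 2 library of day 0 batch 2 (adjusted p = 0.078). SYT15 lost it without the hairpin 2 libraries of day 0 batch 2 (0.098) or day 7 batch 1 (0.058). SYT2 was called in 6 and VAMP1 in 2 of the 15 fits, VAMP1 only without 1 of the sh004 day 7 libraries. Without both libraries of conflicting tags, SYT16 alone stayed past the threshold (adjusted p = 0.039).

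In sh004 cells SYT7 was again higher at day 7, with 1.15 and 0.965 RPKM at day 0 (hairpins 1 and 2) and 10.3 and 20.51 at day 7. SNAP25, the plasma membrane SNARE with a pair of SNARE helices, had 8.85 and 5.28 at day 0 and 19.8 and 22.5 at day 7. SYT2 had 0.868 and 0.675 at day 0 and 2.01 and 1.99 at day 7. None passed the test in either fit, where 0.38% of genes did without the block and 2.11% with it; with the block the adjusted p was 0.067 for SYT7 and 0.082 for SYT2. SYT7 passed with the block without control day 0 batch 2 (0.035) or the sh003 day 7 library of hairpin 2 batch 1 (0.044). Without the hairpin 2 day 7 library, which leaves this arm 1 library assumed to vary like the other groups, 3 members passed with the block, chosen here after their values were seen: VAMP1 was higher at day 7, and RIMBP2 and the synapsin SYN2 were lower.

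The genes called in 1 arm stood as follows in the others. VAMP1 had 3.08, 2.98 and 2.81 RPKM in day 0 controls and 3.29 and 3.53 in day 7 controls, and 2.41 and 2.27 against 4.34 and 2.16 in sh004. SYT15 had 0.435, 1.75 and 1.52 in day 0 controls and 0.855 and 2.89 in day 7 controls, and 1.71 and 1.28 against 2.13 and 1.80 in sh004. SYT7 had 1.96, 0.574 and 6.57 at day 0 in sh003 and 3.43, 18.9 and 3.52 at day 7. In sh003 the days thus overlapped for SYT7. SYT16 had 0.130 and 0.431 at day 0 and 0.611 and 0.661 at day 7 in sh004, while SYT9 had 5.03 and 8.20, then 5.02 and 11.8.

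The knockdown of CASC15-003 at day 0 was marked by SYT4 and RIMBP2, which moved in opposite directions. SYT4 had 21.2, 12.1 and 36.0 RPKM in controls of batches 1, 2 and 3, and 162.2, 168.3 and 103.9 in the sh003 libraries of the same batches, all sh003 values being above all controls. The within-batch ratios were 7.66, 13.9 and 2.89. RIMBP2, which tethers calcium channels to the active zone, had 30.7, 26.2 and 23.5 in controls and 10.2, 7.16 and 11.0 in sh003, ratios of 0.332, 0.273 and 0.468. Here every sh003 library lay below every control. SYT9 had 4.33, 2.10 and 12.7 in controls and 27.5, 25.4 and 28.0 in sh003, again without overlap.

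Without the batch term no member passed, where 0.00514% of genes (1 gene) did; 5 of 29 members had an unadjusted p under 0.05, beside 5.78% of all genes, and SYT4 had an adjusted p of 0.075. With the batch block 2 of 29 members passed, where 0.252% of all genes did. SYT4 rose by a log2 difference of 2.72 (SE 0.40, 95% interval 1.83 to 3.61, adjusted p = 0.031). RIMBP2 fell by 1.47 on the log2 scale (SE 0.20, adjusted p = 0.026). The log2 difference of SYT9, 2.32 (SE 0.40), missed the threshold with an adjusted p of 0.055 with the block; it passed without either batch 3 library of day 0 (0.019 and 0.018) or either sh004 day 7 library (0.020). SYT4 was called in 7 and RIMBP2 in 10 of 15 fits that each left out a library. RIMBP2 lost the call without control day 0 batch 1 (0.20), control day 7 batch 1 (0.050), control day 0 batch 2 (0.13), or the sh003 day 0 libraries of batch 1 (0.24) or batch 2 (0.12). SYT4 lost it without the same 5, at 0.050 to 0.30, and without sh003 day 7 hairpin 2 batch 1 or either sh004 day 0 library, at 0.051 to 0.061. Without both libraries of conflicting tags the adjusted p was 0.30 for SYT4 and 0.26 for RIMBP2 with the block. The summed fibroblast markers were also higher in these sh003 libraries, as given above, and their part in the result was not tested.

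**Figure D3:**
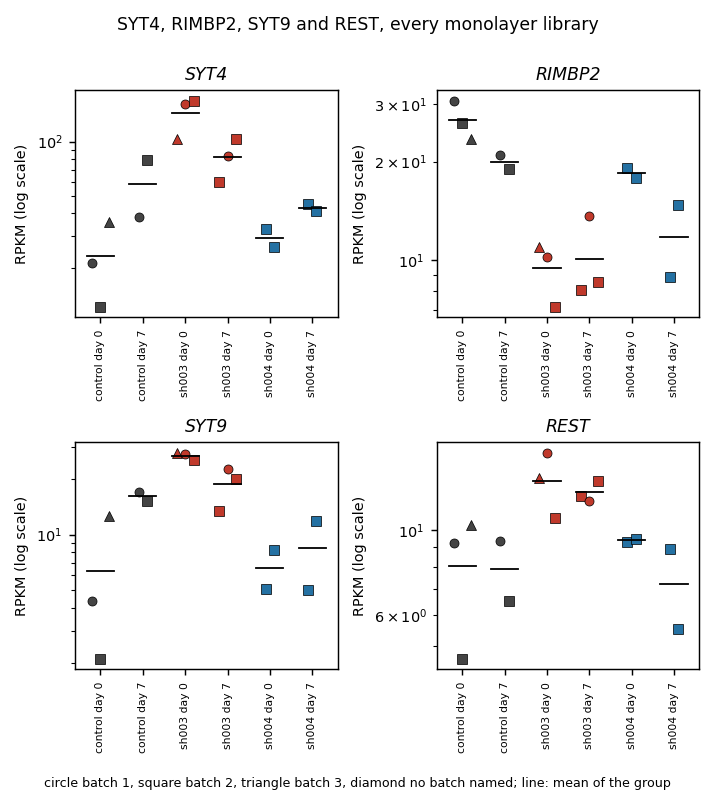
SYT4, RIMBP2, SYT9 and the repressor REST in all 15 monolayer libraries, RPKM on a log axis, shapes giving the batch and lines the group mean. At day 0 the 3 sh003 points lie above the 3 controls for SYT4, SYT9 and REST and below them for RIMBP2.

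At day 7 SYT4 and SYT9 overlapped between the arms. SYT4 had 38.1 and 78.6 RPKM in controls and 59.5, 83.4 and 103.7 in sh003. SYT9 had 17.0 and 15.3 in controls and 13.5, 22.8 and 20.2 in sh003. In batches 1 and 2 SYT4 went up 1.80-fold and 6.48-fold from day 0 to day 7 in controls, and in the hairpin 2 libraries of the same batches it went to 0.514 and 0.617 of the day 0 level. The difference in the day 7 response between sh003 and control was -2.18 on the log2 scale for SYT4 with the block (SE 0.60, unadjusted p = 0.0047, adjusted p = 0.96) and -2.07 for SYT9 (SE 0.61, unadjusted p = 0.0066, adjusted p = 1.00). SYT11 was at -1.23 (SE 0.41, adjusted p = 1.00). No member passed this test in either fit, where 0.0% of all genes did with the block, and 3 of 29 had an unadjusted p under 0.05 in each fit. For sh004 the response test called 0.0103% of genes with the block and no member; SYT16 was at -1.02 (SE 0.36, adjusted p = 0.99) and SYT9 at -1.68 (SE 0.68, adjusted p = 0.99).

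In the sh004 arm at day 0 SYT4 had 32.7 and 26.0 RPKM, inside the range of the 3 controls and both above the 12.1 of the control of their own batch. RIMBP2 had 19.2 and 17.8, below all 3 controls. No member passed in either fit, where 0.0% of genes did, and no member had an unadjusted p under 0.05 without the block (1 of 29 with it, beside 3.69% of all genes). The 3 members with the smallest p were RIMBP2, SNAP25 and RIMS2. SNAP25 had 8.85 and 5.28 RPKM against 11.1, 22.2 and 8.15 in controls. RIMS2, which organises the active zone, had 0.549 and 0.292 against 0.932, 2.01 and 0.521. Both genes overlapped between the groups, and whether sh003 and sh004 differ for SYT4 was not tested.

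At day 7 many release genes were lower in both knockdowns than in controls, but not past the test. All 3 sh003 libraries lay below both controls for 13 of 29 members, as they did for 13.6% of all 19461 genes, and both sh004 libraries did for 14 of 29, beside 22.1% of all genes. These counts share the 2 control libraries and were chosen after the values were seen. The 4 fibroblast markers summed to 8.26 to 13.0 RPKM in day 7 controls, 16.5 to 28.6 in sh003 and 7.69 to 8.81 in sh004, and MYCN had 1.41 to 2.40, 0.0831 to 0.327 and 0.476 to 4.86 in turn; their part was not tested. SYT2 had 2.43 and 3.89 RPKM in controls, 0.859, 1.35 and 1.20 in sh003 and 2.01 and 1.99 in sh004. RIMBP2 had 21.0 and 18.9 in controls, 8.07, 13.6 and 8.56 in sh003 and 8.85 and 14.7 in sh004. SYT11 had 83.1 and 157.9 in controls and 49.9, 60.3 and 55.0 in sh003, and all 3 genes were thus lower in every sh003 library.

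For sh003 at day 7 no member was called in either fit, where 0.0% of genes were without the block and 0.00514% with it. The unadjusted p was under 0.05 for 11 of 29 members without the block (7.22% of all genes) and for 13 with it (14.5%). The median log2 difference of the members was -0.63 with the block, beside -0.05 over all genes. SYT2 was at -1.16 (SE 0.23, adjusted p = 0.11) and RIMBP2 at -0.92 (SE 0.22, adjusted p = 0.15), and both passed with the block when 1 of the sh004 day 7 libraries was left out. For sh004 at day 7 no member was called either, where 0.0% of genes were without the block and 0.226% with it. The members' median was -0.60 with the block, beside -0.09 over all genes, and 3 of 29 members had an unadjusted p under 0.05 without the block (8.04% of all genes). SYT16 was among the 3 members with the smallest p, beside SYT14 and RIMBP2, with 0.611 and 0.661 RPKM against 2.87 and 2.42 (log2 difference -1.21 with the block, SE 0.27, adjusted p = 0.13). SYT14 had 1.53 and 2.09 against 4.61 and 5.39.

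Several classic release genes differed widely among the control libraries themselves. SYT5, SYN1, SYP, STX1A, CPLX1, CPLX2 and UNC13A were each more than 2-fold lower in the day 0 control of batch 3 than in both other day 0 controls. That was 7 of 29 members beside 7.5% of all genes, a count made after the values were seen. SYN1, which ties vesicles into a reserve pool, had 5.75, 10.6 and 0.949 RPKM in day 0 controls of batches 1, 2 and 3. CPLX2, a complexin that clamps and primes the SNARE complex, had 6.98, 17.8 and 0.680. UNC13A, the Munc13 protein that primes vesicles, had 6.75, 15.2 and 0.923, so batch 3 was 7.31-fold below batch 1 and 16.5-fold below batch 2.

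The sh003 libraries of day 0 gave 4.05, 1.44 and 2.15 RPKM for SYN1 in batches 1, 2 and 3, and the sh003-to-control ratio was 0.703, 0.136 and 2.26 in turn. The direction thus turned in batch 3, the lowest control. For CPLX2 the ratios were 0.573, 0.0545 and 1.52. Neither gene passed the day 0 test, and the log2 difference of CPLX2 was -1.33 (SE 0.78, adjusted p = 0.54 with the block). At day 7, for which there is no batch 3 control, SYN1 had 8.05 and 12.1 in controls, 1.19, 4.89 and 1.69 in sh003 and 2.58 and 6.30 in sh004. In the same libraries of batch 1, 2 and 3 at day 0, COL1A1 stood at 3.87, 2.13 and 11.5 RPKM and LUM at 5.51, 3.93 and 14.6 in controls, so the library low in release genes was the one high in these matrix genes. Of the other fibroblast markers, COL1A2 and DCN were at 0.136, 0.0479 and 0.0994 and at 0.2498, 0.2682 and 0.3319 there. The part of these markers in the result was not tested.

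The repressor REST and its corepressors RCOR1 and RCOR2 were read beside these genes. In day 0 controls REST had 9.23, 4.61 and 10.3 RPKM in batches 1, 2 and 3, lowest in batch 2, where SYN1, CPLX2 and UNC13A were highest. The sh003 libraries of day 0 had 15.9, 10.7 and 13.6, above all controls, and the log2 difference of 0.76 (SE 0.22, adjusted p = 0.22 with the block) did not pass. At day 7 REST had 9.35 and 6.51 in controls, 12.2, 11.9 and 13.4 in sh003 and 8.94 and 5.53 in sh004. RCOR2 passed in sh003 cells, falling by 1.59 on the log2 scale at day 7 against day 0 (SE 0.35, adjusted p = 0.041, without the block). Controls shifted the same way for RCOR2, with a log2 difference of -1.26 (SE 0.39) that did not pass. Its adjusted p was 0.17 without the block and 0.078 with it. The sh003 response of RCOR2 differed from the control response by -0.33 (SE 0.53), which did not pass either. In sh004 cells RCOR2 was at -0.14 (SE 0.43). Whether REST accounts for any release gene was not tested.

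SYN1 and UNC13A carry both arms of an RE1 element within their RefSeq promoter windows (build GRCh38.p14, 250 bases before to 50 after the start). Windows were found for 26 of the 34 genes, 41 in all. The left arm TTCAGCACC and the right arm GGACAGNGC, searched on both strands, stand 2 bases apart at SYN1, a spacing that 0.00854% of 35116 windows hold (TTCAGCACCNNGGACAGNGC), and 8 bases apart on the opposite strand at UNC13A (TTCAGCACCNNNNNNNNGGACAGNGC, also 0.00854%). The left arm by itself is in 0.376% and the right arm in 2.32% of windows. The motifs were chosen after the values were seen. SYT4 and RIMBP2, called for sh003 against control at day 0, hold the shorter TCAGCACC, part of the left arm, on the strand opposite to the gene. It is held, on either strand, by 1.67% of windows and 7 members. The others are SYN1, UNC13A, SV2B, SV2C and SYT3, none of them called in that comparison. Of 3 RIMBP2 windows 1 holds it. The windows are printed 5′ to 3′ along the gene with these motifs in capitals, on chrX:47619808-47620107, chr19:17688305-17688604, chr18:43277441-43277740 and chr12:130628407-130628706, all genes on the minus strand:
SYN1: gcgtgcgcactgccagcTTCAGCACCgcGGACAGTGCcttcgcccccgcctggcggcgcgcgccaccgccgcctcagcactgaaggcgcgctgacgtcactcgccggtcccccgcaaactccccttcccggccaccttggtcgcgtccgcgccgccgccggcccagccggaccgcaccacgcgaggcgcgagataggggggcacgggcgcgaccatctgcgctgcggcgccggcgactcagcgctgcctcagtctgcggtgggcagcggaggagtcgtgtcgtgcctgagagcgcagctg
UNC13A: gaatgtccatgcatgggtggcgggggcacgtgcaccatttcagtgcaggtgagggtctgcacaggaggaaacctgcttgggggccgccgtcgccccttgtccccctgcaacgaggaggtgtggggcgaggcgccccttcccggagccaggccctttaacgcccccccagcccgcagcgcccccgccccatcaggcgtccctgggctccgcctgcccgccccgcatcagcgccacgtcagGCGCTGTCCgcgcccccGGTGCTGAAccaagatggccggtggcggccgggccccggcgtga
SYT4: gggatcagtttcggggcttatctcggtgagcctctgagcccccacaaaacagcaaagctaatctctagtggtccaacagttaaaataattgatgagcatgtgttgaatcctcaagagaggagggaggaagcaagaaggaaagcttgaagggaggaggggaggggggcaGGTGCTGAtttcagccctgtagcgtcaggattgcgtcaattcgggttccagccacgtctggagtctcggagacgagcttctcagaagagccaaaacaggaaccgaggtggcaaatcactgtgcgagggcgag
RIMBP2: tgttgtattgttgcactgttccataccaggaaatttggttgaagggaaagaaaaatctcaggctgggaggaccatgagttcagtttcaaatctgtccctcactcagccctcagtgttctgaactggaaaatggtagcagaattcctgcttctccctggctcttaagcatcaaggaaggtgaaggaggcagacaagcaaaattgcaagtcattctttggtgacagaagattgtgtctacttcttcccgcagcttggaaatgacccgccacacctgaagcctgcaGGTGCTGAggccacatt
A match is a description of these letters and not a bound site. AGGTCA, the core repeat of retinoic acid receptor sites, lay in 5 of the 41 member windows and in 13.8% of all windows. The 5 belong to SYT2, SYT3, SYT6, SYT9 and RIMS1.

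**Figure D4:**
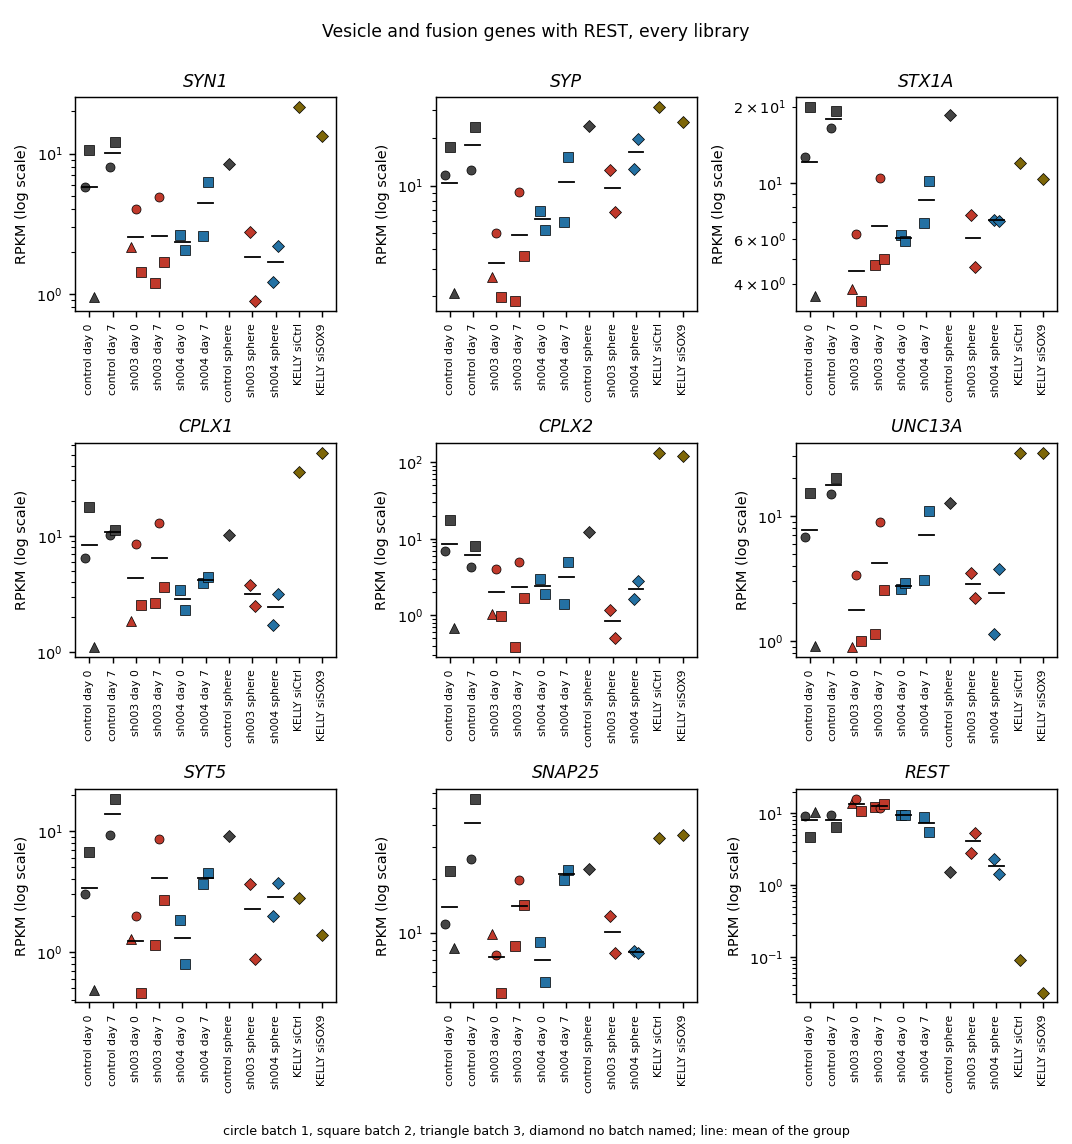
Vesicle and fusion genes and REST in all 22 libraries by group, RPKM on log axes; triangles are batch 3 and diamonds carry no batch. The batch 3 control lies far below the other day 0 controls for the first 7 genes, the control sphere lies above the 4 knockdown spheres for all 8, and REST is lowest in KELLY cells.

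In spheres the single control library was above all 4 knockdown libraries for 11 of 26 members, beside 17.0% of 14711 genes. It was more than 2-fold above all 4 for 6 of 26, beside 0.687%, and both counts were made after the values were seen. These 6 were SYT5, SYN1, STX1A, CPLX1, CPLX2 and UNC13A. CPLX2 had 12.5 RPKM in the control sphere, 1.17 and 0.512 in sh003 and 1.63 and 2.86 in sh004. UNC13A had 12.7, then 3.49 and 2.19 in sh003 and 1.14 and 3.73 in sh004. SYN1 had 8.404, then 2.78 and 0.888 in sh003 and 1.21 and 2.18 in sh004. With 1 control library its own spread is not known, and limma took it to vary like the other groups. REST had 1.51 RPKM in the control sphere, 2.81 and 5.37 in sh003 and 2.28 and 1.44 in sh004.

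No member was called for sh003 spheres against the control, where 0.0% of genes were; 9 of 26 members had an unadjusted p under 0.05, beside 19.1% of genes. CPLX2 was at a log2 difference of -3.32 (adjusted p = 0.14), STX1A at -1.57 (adjusted p = 0.17) and CPLX1 at -1.58 (adjusted p = 0.19). STX1A, the plasma membrane syntaxin, had 18.5 RPKM in the control, 7.48 and 4.64 in sh003 and 7.15 and 7.07 in sh004. CPLX1 had 10.2, then 3.81 and 2.49 and then 1.70 and 3.17. No member was called for sh004 spheres against the control either, where 0.129% of genes were and 9 of 26 members had an unadjusted p under 0.05 (22.2% of genes). CPLX2 was at -2.28 (adjusted p = 0.10) and CPLX1 at -1.92 (adjusted p = 0.11). SV2B, a vesicle glycoprotein of the SV2 family, differed the other way. It had 0.0186 RPKM (9 reads) in the control sphere and 7.59 and 3.68 (5871 and 1282 reads) in sh004, with 1.12 and 0.0434 in sh003. Its log2 difference of 3.49 had an adjusted p of 0.11, and 0.043 or 0.023 when the hairpin 1 or hairpin 2 sh003 sphere was left out. Leaving out the hairpin 2 sh003 sphere also brought CPLX2 and SNAP25 past the threshold.

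Between the knockdowns, sh003 against sh004 spheres, 5 of 26 members were called, fewer than the 39.9% of all genes called. SYT1, the main fast calcium sensor, had 18.9 and 25.0 RPKM in sh003 and 8.49 and 5.49 in sh004 (log2 difference 1.60, SE 0.27, adjusted p = 0.010). RAB3A, the vesicle GTPase that binds RIM proteins, had 11.4 and 19.4 in sh003 and 3.55 and 4.00 in sh004 (log2 difference 1.85, SE 0.29, adjusted p = 0.0090). SYT14 was also higher in sh003, with 1.56 and 1.48 against 0.564 and 0.451 and 1.15 in the control (adjusted p = 0.044). The 2 genes lower in sh003 were SV2B (log2 difference -2.63, adjusted p = 0.019) and VAMP2, the main vesicle SNARE, with 13.2 and 11.8 against 18.9 and 20.51 (log2 difference -0.64, adjusted p = 0.039). SYT1 and RAB3A had 10.3 and 11.6 RPKM in the control sphere, and VAMP2 had 15.4.

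SYT1 and RAB3A were called without each of the 4 knockdown spheres in turn except the sh004 hairpin 2 library (adjusted p = 0.054 and 0.051). SV2B lost its call without either sh004 sphere (0.099 and 0.060), and SYT14 and VAMP2 lost theirs without any of the 4 knockdown spheres (0.071 to 0.16). Without the hairpin 1 sh003 sphere the test called CPLX2, SYP and RIMBP2 as well, and without the hairpin 2 one it called SYT4. On the values as deposited, before the library totals were set right, SV2B alone was called.

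Partners of the release machinery were read from 7 lists of 106 genes in all, of which 83 were tested in monolayers and 77 in spheres. Without the block RCOR2 fell in sh003 cells at day 7, as given above, and none of the 83 passed in the other 8 monolayer comparisons. With the block 7 of 83 rose and 1 fell in controls at day 7, close to the 7.68% of all genes called there. The 7 included RAB27A, a GTPase of secretory granules (log2 difference 1.21, SE 0.19), the calcium channel subunit CACNA2D2 (1.45, SE 0.36), RAB3B (0.98, SE 0.24) and the synaptotagmin-like protein SYTL3 (1.17, SE 0.19). The gene that fell was RPH3A, a Rab3 effector (-2.01, SE 0.48). In sh003 cells at day 7, 11 of 83 rose and 6 fell with the block, where 14.3% of all genes were called. SLC18A1 and SLC18A3, which load monoamines and acetylcholine into vesicles, fell by 1.90 and 2.31 on the log2 scale (SE 0.45 and 0.59). In the sphere comparison of sh003 with sh004, 25 of 77 were higher and 11 lower, beside the 39.9% of all genes. SLC18A1 was higher by a log2 difference of 3.67 (SE 0.39, adjusted p = 0.0087), with 15.3 and 28.4 RPKM in sh003 and 0.766 and 1.72 in sh004.

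In KELLY cells the SOX9 siRNA lowered SOX9 from 5.61 to 0.974 RPKM. With 1 library per condition there is no replicate check, and intervals cover counting error only. Of the 24 members at an RPKM of 1 or more in either library, 18 had an exact 95% interval of the ratio (Clopper-Pearson, from the recovered reads) that excluded 1, and so did 57.6% of 14340 genes. Of these 18, 15 were lower with SOX9 siRNA and 3 higher. Over the 14340 genes, 3498 had an interval below 1 and 4758 had one above 1. Among the 18 members, SYT9 showed the lowest ratio, from 1.54 to 0.414 RPKM (ratio 0.270, interval 0.191 to 0.373, from 185 and 47 reads). SYT5 went from 2.78 to 1.37 (ratio 0.494, interval 0.411 to 0.592), SYT11 from 50.7 to 29.4 (ratio 0.581, interval 0.558 to 0.605) and SYN1 from 21.4 to 13.3 (ratio 0.621, interval 0.575 to 0.672). These 4 lay furthest below 1. The other lower members had ratios of 0.649 (SYN2), 0.730 (SYT2), 0.789 (SYT1), 0.807 (SYP), 0.819 (SYT14), 0.830 (VAMP2), 0.861 (SYT7), 0.863 (STX1A), 0.909 (CPLX2), 0.916 (NSF) and 0.922 (SV2A). Of the 18, CPLX1 lay furthest above 1, from 35.4 to 51.7 RPKM (ratio 1.46, interval 1.38 to 1.54), followed by SV2C at 1.25 and RIMBP2 at 1.10. Under 1 RPKM in both libraries, SYT15 had a ratio of 2.12 (63 and 126 reads) and SYT3 0.281 (34 and 9 reads). Their intervals also excluded 1. SNAP25, UNC13A and RIMS2 had ratios of 1.05, 0.993 and 1.02, with intervals that include 1. The median log2 ratio was -0.16 over the 24 members and 0.05 over the 14340 genes.

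**Figure D5:**
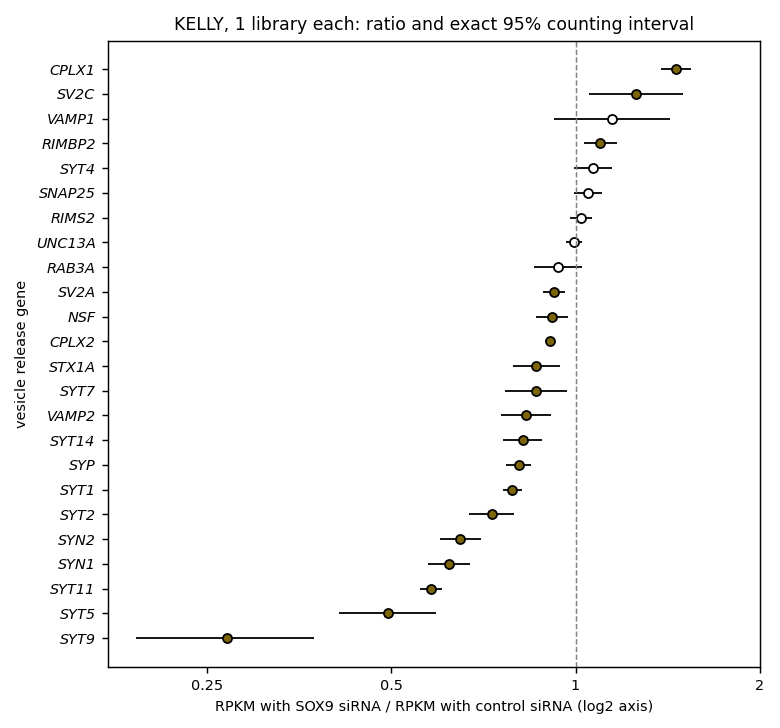
Ratio of RPKM with SOX9 siRNA to RPKM with control siRNA in KELLY cells on a log2 axis, for the 24 members at 1 RPKM or more, with exact 95% counting intervals; filled points exclude 1. SYT9 lies furthest left at 0.270 and CPLX1 furthest right at 1.46.

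KELLY cells differed from SH-SY5Y cells in which release genes they held, a comparison across separately made tables and so given as levels only. The KELLY control was above every SH-SY5Y library for 13 of the 31 members at an RPKM of 1 or more in any library. The share was 13.0% of 22906 such genes, and the count was made after the values were seen. CPLX2 had 133.4 RPKM against at most 17.8, RIMS2 14.9 against at most 3.45, and CPLX1 35.4 against at most 17.7. SYT4, at 13.6 RPKM in the KELLY control, lay near the low end of its 11.3 to 168.3 in SH-SY5Y libraries. SYT16, SYT17 and RIMS1 had 0.0438, 0.0573 and 0.00307 RPKM in the KELLY control. REST was at 0.0897 and 0.0317 RPKM in the KELLY libraries, against 1.44 to 15.9 in the SH-SY5Y libraries.

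The remaining members tested in monolayers were not called there with all libraries in the fit. SYT3 ranged from 0.909 to 2.96 RPKM over the 15 libraries, SYT17 from 0.722 to 1.79, SYN2 from 2.02 to 8.02, SV2C from 0.569 to 10.95, and NSF was at least 7.14. SYT12 was at most 1.03 in 14 libraries and 5.95 in the sh003 day 0 library of hairpin 1.

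Exons of 17 of the 34 genes overlap those of another gene in GENCODE release 29, and the strand setting of the authors' counting is not given in the sources used here. Among the genes called, SYT2 overlaps PPP1R12B, VAMP1 overlaps TAPBPL and RAB3A overlaps MPV17L2 on the opposite strand, and SYT1, SYT9, SYT16 and RIMBP2 overlap non-coding or unclassified genes there. SYT7 and VAMP2 overlap a gene on the same strand. For these genes reads of the overlapping gene may be counted in. SYT4, SYT14 and SV2B share no exon bases with another gene.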

How the data were processed

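RNA sequencing values of 22 libraries were read from 3 tables of RPKM per gene deposited by the authors for monolayers, spheres and KELLY cells. The tools named are TopHat, featureCounts and Subread and the build is hg19, per the submitters' processing notes; versions, order and annotation release are not given in the sources used here. Per the labels' protocols, the library kit was stranded and removed ribosomal RNA. Gene length and RPKM gave back the read numbers, 100% within 0.01 of a whole number, and library totals of 11884895 to 37938767 reads in monolayers, 27769606 to 62075189 in spheres and 24003701 to 25471924 in KELLY. In the deposited sphere table, 10 totals rotate from gene to gene, 5 of them the spheres' own, so sphere RPKM was recomputed with each library's own total. Of the identifiers, 52181 matched a symbol.

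Genes at RPKM 1 or more in 2 libraries were kept. limma 3.58.1 in R 4.3.3, with a trend, was fitted to log2(RPKM + 0.5), which understates changes of low genes, over all groups of a table (9 residual degrees of freedom in monolayers, 7 with the batch block, 2 in spheres), and tested on simulated data. p-values were Benjamini-Hochberg adjusted over all genes at 0.05. The labels name the batch of each monolayer library, so the fit with batch as a block is printed where it changed a call. Deviations from group means were correlated between libraries of different groups, sh004 left out. They correlated at 0.72 to 0.94 over 16 same-batch pairs and at -0.92 to 0.74 over 29 pairs of different batches. Deviations within a group cancel each other, so these pairs are not independent. Groups follow the titles. Members named are those called in either fit; where none was, the 3 with the smallest p; in KELLY, those whose interval excludes 1. The members and lists were chosen with earlier results of these data known. Alternatives were another pseudocount, no filter, other scalings, voom, the deposited sphere values and each library left out. Promoter sequences are from RefSeq. Results for some list and marker genes are not reported here.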

Additional observations from a re-analysis of the deposited data

How the results depend on the processing

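Without a batch term and with all libraries, the only member called in any monolayer comparison was SYT2, by voom for day 7 in controls. No direction turned among the members named under the alternatives run. With batch as a replicate block the number of members called was 4 for day 7 in controls, 4 for day 7 in sh003 and 2 for sh003 against control at day 0; it was 0 in the other monolayer comparisons. With the block and median-ratio scaling together, an alternative chosen after seeing the data, these were 3, 2 and 2. With the block and without both libraries of conflicting tags, also chosen after seeing the data, they were 2, 1 and 0. Voom on recovered reads called 1 for day 7 in controls. Leaving out each library in turn, with and without the block, gave 0 to 4 for day 7 in controls, 0 to 4 for day 7 in sh003, 0 to 3 for day 7 in sh004, 0 to 3 for sh003 against control at day 0 and 0 to 2 at day 7. In spheres it gave 0 to 3 for sh004 against control and 0 to 6 for sh003 against sh004. For sh004 against the control sphere the deposited values called 1 member. For sh003 against sh004 spheres, 5 members were called, 0 without a filter and 1 on the deposited values. The causes were not tested. Other scalings moved the median of all genes from 0.15 to as low as -0.03 for day 7 in controls and from -0.15 to 0.10 for sh004 against control at day 7. In KELLY, SYT9 moved from a log2 ratio of -1.16 to -1.67 with a pseudocount of 0.1.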
